A study of Homo sapiens with 8 samples.

Results

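The claudin genes described here are CLDN1, CLDN3, CLDN4, CLDN6, CLDN7, CLDN10, CLDN11, CLDN12, CLDN15 and CLDN16. They are 10 of the 18417 genes that could be tested. Each was read by the probe sets of the array whose only gene symbol is that claudin, keeping the one with the highest mean over all arrays, and each of the 10 had exactly 1 such probe set. The members were selected on the family name and on intensities already measured on these arrays, with the values of the pair labelled temsirolimus 24 h in view. Differences that involve those arrays are therefore given for the members as descriptions with no p, and counts of members past a threshold stand there only beside the share of all genes. A further 13 claudin genes were measured, which makes 23 in all.

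Claudins span the membrane repeatedly and polymerise into the strands of the tight junction, the belt that seals the space between neighbouring epithelial cells. Some of them close that space to ions and others form channels through it, and scaffold proteins such as the zonula occludens proteins hold the strands to the actin cortex. In ovarian carcinomas CLDN3 and CLDN4 are known for high levels, and repressors of the SNAIL, ZEB and TWIST families are known to lower epithelial junction genes, claudins among them.

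RNA of human ovarian carcinoma cell lines was hybridised to Affymetrix Human Gene 1.0 ST arrays, with 8 arrays in 4 groups of 2. The groups were A2780CP20 without treatment, A2780 without treatment, and A2780 exposed to temsirolimus for 24 h or for 48 h. A2780 is an established ovarian carcinoma line, A2780CP20 is its cisplatin-resistant subline, and temsirolimus, an ester of rapamycin, blocks the growth-controlling kinase complex mTORC1. All cells were grown in RPMI medium with fetal bovine serum, and resistance is represented by 1 subline only. The drug was kept as a stock in DMSO, its dose was not given in the sources used here, and the control labels do not say whether vehicle was added. Nothing in the labels says that replicates came from separate cultures, and the p-values given here therefore rest on a spread between these samples that may be technical. Values are the deposited log2 intensities, and a level on one probe set cannot be set against a level on another. Array medians lay between 6.66 and 6.72, and lower quartiles between 5.03 and 5.13.

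Before any claudin is considered, the pair of arrays labelled 24 h has to be set apart from the rest. Across genes they correlated with the other 6 arrays at r = 0.950 to 0.952 and with each other at 0.997. Against untreated A2780, r was 0.994 to 0.996 for the 48 h arrays and 0.982 to 0.989 for A2780CP20. These are correlations across genes, which do not count as replicates, and carry no test. Nothing in the files allows the labels of this pair to be checked, so each difference given at 24 h is one between arrays so labelled and untreated A2780. Marker genes of cell identity differed on this pair too, the fibroblast markers over most of their list and the epithelial and ovarian carcinoma markers in few genes. Mean log2 intensity over 14 epithelial and ovarian markers was 6.36 and 6.43 on the A2780CP20 arrays, 6.30 and 6.36 in untreated A2780, 6.55 and 6.63 on the arrays labelled 24 h and 6.15 and 6.18 on those labelled 48 h. The median difference of these markers at 24 h was -0.09, beside 0.01 over all genes, and the highest single ones were KRT18 (2.94) and EPCAM (2.17). The same mean over 9 fibroblast markers was 9.14 and 9.15 in A2780CP20, 9.43 and 9.45 in untreated A2780, 6.91 and 6.92 at 24 h and 9.40 and 9.42 at 48 h. CDH1, which encodes the defining epithelial cadherin, lay between 5.19 and 5.76 on every array, near the lower quartile of its array. Endothelial and leukocyte marker means stayed between 5.26 and 5.71 on every array, and what part the marker levels have in the claudin values was not tested.

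The promoters of CLDN1 and CLDN16 are shown first, because these 2 members carry the difference that sets the arrays labelled 24 h apart within the family. CLDN1 encodes a sealing claudin that the skin barrier needs, and CLDN16 encodes the kidney claudin that magnesium and calcium reabsorption needs. The sequences are the 250 bases before a RefSeq start on assembly GRCh38.p14, read 5′ to 3′ on the strand of the gene. Capitals mark the general E-box letters CANNTG, of which SNAIL, ZEB, TWIST and other helix-loop-helix or zinc finger proteins bind particular forms. The CLDN1 window lies at chr3:190322447-190322696 on the minus strand. The 2 CLDN16 windows lie at chr3:190290111-190290360 and chr3:190387913-190388162 on the plus strand.
CLDN1 promoter: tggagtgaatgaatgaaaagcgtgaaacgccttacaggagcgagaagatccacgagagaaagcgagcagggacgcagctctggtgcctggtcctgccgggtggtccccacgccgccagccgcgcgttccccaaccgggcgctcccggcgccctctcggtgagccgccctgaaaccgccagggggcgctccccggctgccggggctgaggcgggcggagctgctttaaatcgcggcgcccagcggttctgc
CLDN16 promoter, first start: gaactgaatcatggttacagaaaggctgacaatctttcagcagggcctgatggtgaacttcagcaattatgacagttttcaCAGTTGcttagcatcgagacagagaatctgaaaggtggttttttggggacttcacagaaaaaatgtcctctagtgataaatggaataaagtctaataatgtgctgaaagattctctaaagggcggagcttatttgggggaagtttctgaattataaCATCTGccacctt
CLDN16 promoter, second start: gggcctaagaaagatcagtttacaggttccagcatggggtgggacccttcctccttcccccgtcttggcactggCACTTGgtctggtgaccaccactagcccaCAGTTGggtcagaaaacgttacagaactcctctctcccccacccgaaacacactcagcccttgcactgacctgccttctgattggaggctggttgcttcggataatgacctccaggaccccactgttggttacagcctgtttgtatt
The CLDN1 window held no CANNTG, a GC content of 68.8% and an observed over expected CpG ratio of 0.95. The first CLDN16 window held CAGTTG and CATCTG, a GC content of 40.0% and a CpG ratio of 0.21, and the second held CACTTG and CAGTTG at 54.8% GC and a ratio of 0.22. Over 35116 RefSeq windows of the same length the median GC content was 58% and the median CpG ratio 0.56, and 61.8% of windows held a CANNTG on either strand. These 2 genes, close together on chromosome 3, thus start from windows of unlike base composition.

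The letters CAGGTG, which read CACCTG on the other strand and are the E-box core bound by SNAI2, are a special case of CANNTG and stood in 17.5% of all windows. Among the 14 windows of the 10 members, 1 held them, at the second start of CLDN7 (chr17:7262479-7262728, minus strand, GRCh38.p14). CLDN7 encodes a claudin that binds the adhesion protein EPCAM. Its window held 4 matches, beginning 174, 135, 20 and 9 bases before the start. The first 3 are printed with 12 bases on each side, from chr17:7262635-7262664, chr17:7262596-7262625 and chr17:7262481-7262510, all on the minus strand, with each match in capitals, and the match at 9 falls within the last of these lines.
CLDN7 site at 174: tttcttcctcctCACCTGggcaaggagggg
CLDN7 site at 135: cgacttccggttCAGGTGagtgtcccttcg
CLDN7 sites at 20 and 9: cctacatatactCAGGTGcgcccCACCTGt
A match of letters is a description of the window and not a binding site. Windows of CLDN1, CLDN3, CLDN4, CLDN6 and CLDN12 held no CANNTG at all. Other forms of it stood at the first start of CLDN7 and in the window of CLDN15. They also stood in both windows of CLDN16 and in 1 of the 2 windows each of CLDN10 and CLDN11.

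**Figure D1:**
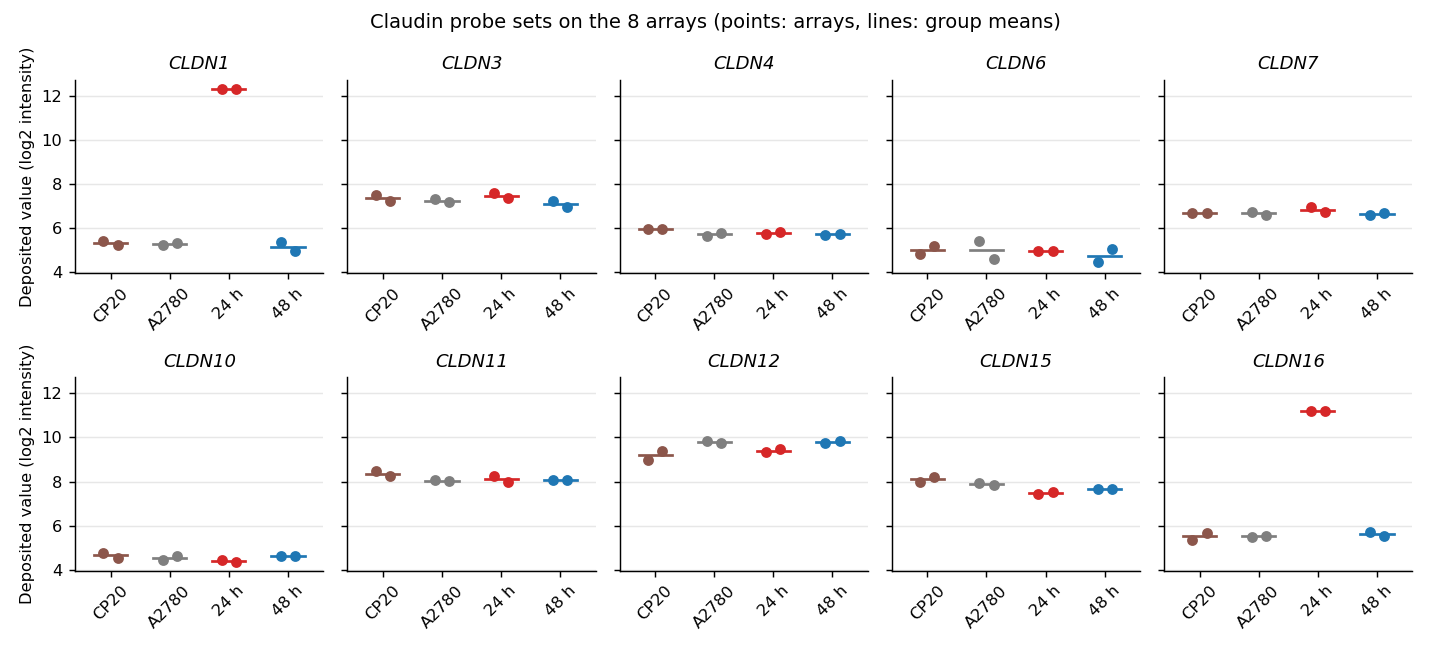
Deposited log2 intensity of the 10 claudins on the 8 arrays, 1 panel a gene, with A2780CP20, untreated A2780, 24 h and 48 h from left to right. Points are arrays and lines are means of 2 arrays. CLDN1 and CLDN16 lie between 11.19 and 12.32 on the arrays labelled 24 h and between 4.96 and 5.72 on the other 6 arrays.

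On the arrays labelled 24 h, CLDN1 and CLDN16 were far above every other array, as the panels of claudin values by array show, and the other 8 members were not. CLDN1 read 12.32 on both arrays labelled 24 h, against 5.24 and 5.33 in untreated A2780. The same probe set read 5.41 and 5.25 in A2780CP20 and 5.36 and 4.96 at 48 h. The 24 h pair was high and equal, and the other 6 arrays were close together, 1 of them below the lower quartile of its array and the rest just above it. The difference of 24 h over untreated A2780 was 7.04 on the log2 scale, or 131-fold, the rank 2 highest of all 18417 genes.

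CLDN16 read 11.19 and 11.22 on the arrays labelled 24 h, against 5.50 and 5.54 in untreated A2780. It read 5.38 and 5.68 in A2780CP20 and 5.72 and 5.52 at 48 h. No array outside the 24 h pair came near that pair. The difference of 24 h over untreated A2780 was 5.69 (51.4-fold), the rank 8 highest of all genes. For the later time against the earlier one, 48 h over 24 h, the differences were -7.16 for CLDN1 and -5.59 for CLDN16. In RNA from whole cultures, a change in how many cells carry a transcript and a change in the amount per cell cannot be told apart.

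Among the other 8 members the difference of 24 h over untreated A2780 ran between -0.41 and 0.21. The largest of these belonged to CLDN15, which encodes a sodium-conducting channel claudin of the gut. CLDN15 read 7.42 and 7.54 at 24 h, against 7.92 and 7.85 in untreated A2780, so both arrays labelled 24 h were lower, by 0.41. CLDN12, an atypical claudin without the usual PDZ-binding end, read 9.36 and 9.46 at 24 h, against 9.83 and 9.76 in untreated A2780. Its 24 h arrays were lower as well, with a difference of -0.39. CLDN10, an ion channel claudin of kidney and glands, read 4.45 and 4.37 at 24 h, against 4.46 and 4.64 in untreated A2780. These are all under the lower quartile of their arrays, and the difference was -0.14.

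CLDN3 and CLDN4 are receptors of the Clostridium perfringens enterotoxin and the claudins best known from ovarian carcinoma. CLDN3 read 7.57 and 7.35 at 24 h, against 7.33 and 7.17 in untreated A2780, a difference of 0.21 with no overlap of the arrays. CLDN4 read 5.75 and 5.82 at 24 h, against 5.66 and 5.78 in untreated A2780, with overlap and a difference of 0.07. CLDN6, an oncofetal claudin normally silent in adult tissue, read 4.96 and 4.97 at 24 h, against 5.4 and 4.61 in untreated A2780. The untreated arrays of CLDN6 lay on both sides of the 24 h pair, and the difference was -0.04. CLDN7 read 6.95 and 6.73 at 24 h, against 6.74 and 6.61 in untreated A2780, with a difference of 0.17 and overlapping arrays. CLDN11, the claudin of myelin and of Sertoli cells, read 8.24 and 8.0 at 24 h, against 8.07 and 8.02 in untreated A2780, and the arrays overlapped too, with a difference of 0.08.

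In the fit over all genes, 3 of the 10 members passed adjusted p under 0.05 at 24 h, where 30.1% of all genes did. Of the 10, 2 were at least 2-fold apart from untreated A2780, where 6.43% of all genes were. The arrays of the groups did not overlap for 6 of the 10, where 66% of all genes had no overlap. Nothing is read from these counts, because the choice of members used this contrast. The median difference was 0.07 over the members and 0.01 over all genes. For 48 h over 24 h, 2 members were called (31% of all genes), 2 were at least 2-fold apart (6.49%) and 8 had no overlap (69.3%), likewise with nothing read from them.

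The remaining 13 claudins are known barrier, channel and tissue-specific forms, and on the arrays labelled 24 h they lay between -0.33 and 0.44 of untreated A2780, with a median of 0.08. Of these, 1 was called in the limma fit, where 30.1% of all genes were. It was CLDN2, the cation and water channel of leaky epithelia. CLDN2 read 5.97 and 5.82 at 24 h, against 5.43 and 5.49 in untreated A2780, and rose by 0.44 ± 0.10 (SE, limma adjusted p = 0.0117). CLDN5, the main claudin of blood vessels, read 7.29 and 7.27 at 24 h, against 6.98 and 7.06 in untreated A2780, which missed the threshold (0.26 ± 0.10, limma adjusted p = 0.0757). No other claudin in the file approached the differences of CLDN1 and CLDN16.

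**Figure D2:**
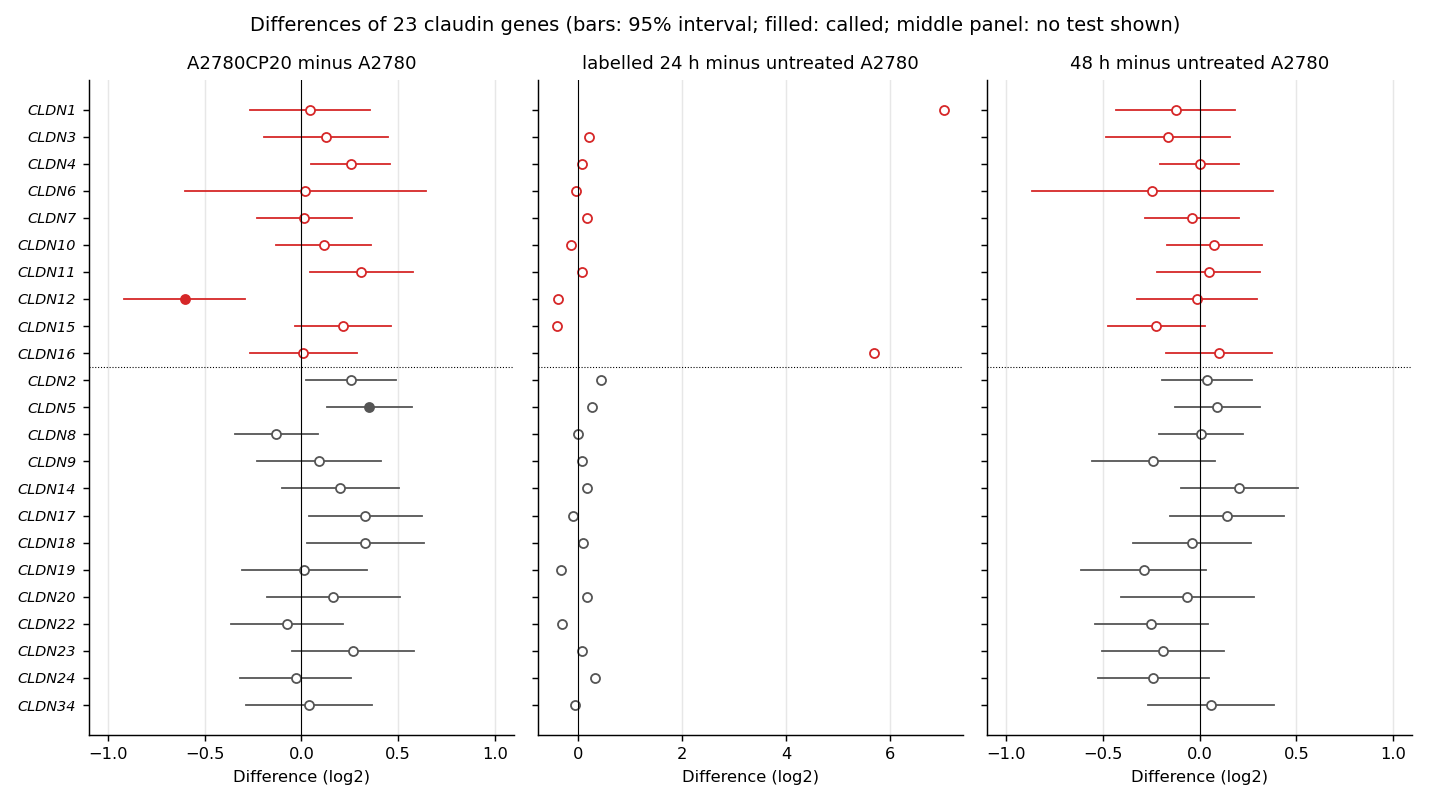
Log2 differences of 23 claudin genes for A2780CP20 minus A2780, arrays labelled 24 h minus untreated A2780, and 48 h minus untreated A2780. The 10 described claudins are in red above the dotted line, the other 13 in grey below it, bars are 95% intervals of the limma fit in the outer panels, and filled points passed adjusted p under 0.05. The middle panel has a wider axis and shows no interval or call, with CLDN1 at 7.04 and CLDN16 at 5.69.

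Position was a feature that CLDN1 and CLDN16 shared. In the RefSeq gene table of GRCh38.p14 both lie on chromosome 3, CLDN1 on the minus strand within the span of CLDN16 on the plus strand. Whether either probe set could read the other strand was not tested. The genes beside them were taken in chromosomal order, 5 measured protein-coding genes on each side, and most of the nearest also differed on the arrays labelled 24 h. P3H2, which encodes a collagen prolyl 3-hydroxylase and lies next to CLDN16, read 10.67 and 10.90 at 24 h, against 4.99 and 4.83 in untreated A2780, and rose by 5.88 ± 0.13 (limma adjusted p = 1.79e-08). TMEM207, on the other side, read 7.72 and 7.44 at 24 h, against 4.77 and 4.75 in untreated A2780, and rose by 2.82 ± 0.15 (limma adjusted p = 1.97e-06). IL1RAP, the accessory chain of the interleukin-1 receptor, read 10.74 and 10.71 at 24 h, against 6.95 and 6.98 in untreated A2780, and rose by 3.76 ± 0.11 (limma adjusted p = 5.82e-08).

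Beyond IL1RAP the direction turned. OSTN, which encodes the secreted peptide osteocrin, read 4.28 and 4.58 at 24 h, against 11.59 and 11.69 in untreated A2780, and changed by -7.21 ± 0.17 (limma adjusted p = 2.15e-08). UTS2B, which encodes a urotensin-related peptide, changed by -2.65 ± 0.50 (limma adjusted p = 0.00391), and CCDC50 by -1.53 ± 0.09 (limma adjusted p = 3.56e-06). On the far side of P3H2, TPRG1 (-0.22, limma adjusted p = 0.184) and LPP (0.10, limma adjusted p = 0.706) missed the threshold, and BCL6, a transcriptional repressor, changed by -1.01 ± 0.20 (limma adjusted p = 0.00542). RTP2, 1 gene further out, differed by 0.16 and missed the threshold (limma adjusted p = 0.475). The 5 adjacent genes P3H2, CLDN16, CLDN1, TMEM207 and IL1RAP were thus all higher on the arrays labelled 24 h, with smaller or opposite differences around them. At 48 h none of these neighbours passed the threshold. In A2780CP20 only OSTN (-0.83 ± 0.17, limma adjusted p = 0.0139) and CCDC50 (-0.35 ± 0.09, limma adjusted p = 0.0289, lost in 9 of 17 alternatives) did among them.

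**Figure D3:**
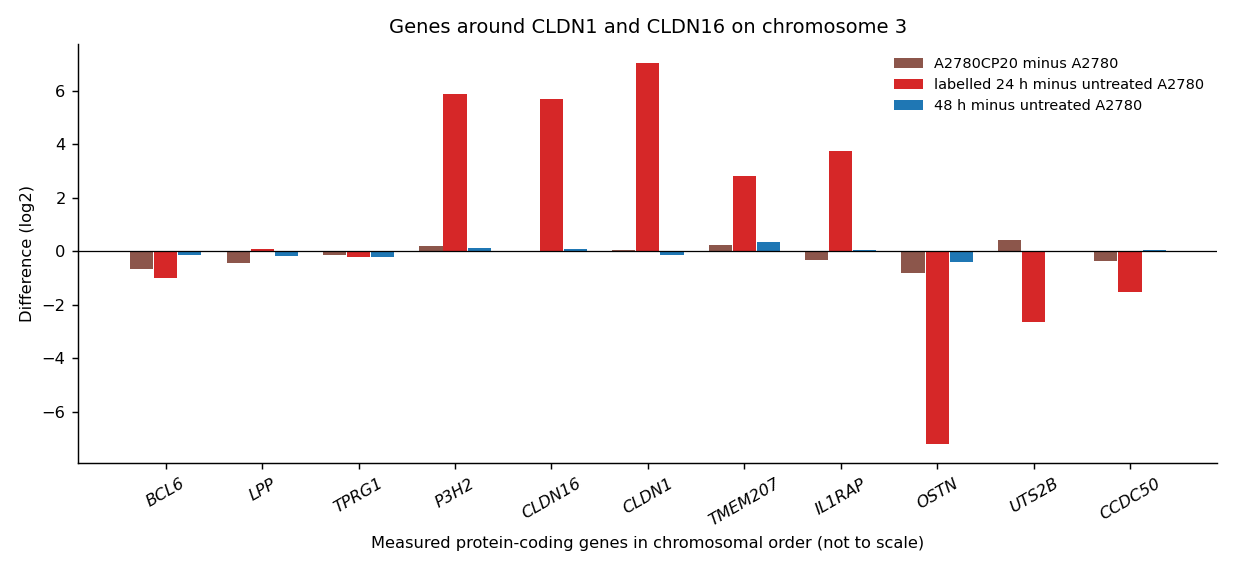
Log2 differences of CLDN1, CLDN16 and their measured protein-coding neighbours in chromosomal order along chromosome 3, not to scale. Bars start at 0 and stand for A2780CP20 minus A2780, arrays labelled 24 h minus untreated A2780 and 48 h minus untreated A2780. P3H2, CLDN16, CLDN1, TMEM207 and IL1RAP lie between 2.82 and 7.04 at 24 h, and OSTN lies at -7.21.

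Around the other members, several neighbours passed adjusted p under 0.05 at 24 h, where 30.1% of all genes did. Of these only CDK14, DZIP1 and TNFRSF12A were at least 2-fold apart, where 6.43% of all genes were. The claudins beside them were not. Beside CLDN12, CDK14, which encodes a cyclin-dependent kinase, rose by 2.36 ± 0.18 at 24 h (limma adjusted p = 2.07e-05), and GTPBP10 on the other side differed by 0.21 (limma adjusted p = 0.3). CLDN10 lies between DZIP1 (-2.03 ± 0.11, limma adjusted p = 2.76e-06) and the drug exporter gene ABCC4 (-0.86 ± 0.09, limma adjusted p = 0.000168), both lower at 24 h. Beside CLDN6, the TWEAK receptor gene TNFRSF12A rose by 1.2 ± 0.12 (limma adjusted p = 0.000142), and CLDN9 differed by 0.08. ABHD11 beside CLDN3 rose by 0.55, METTL27 beside CLDN4 fell by 0.42 and SKIL beside CLDN11 fell by 0.44, with limma adjusted p of 0.0014, 0.0206 and 0.00968. Beside CLDN7, ELP5 rose by 0.34 and SLC2A4 fell by 0.42, with limma adjusted p of 0.0156 and 0.00815. The calls of METTL27 and ELP5 were each lost in 4 of 16 alternatives, and those of SKIL and SLC2A4 in 2 of 16. ZNHIT1 and FIS1 beside CLDN15 and SLC7A14 beside CLDN11 missed the threshold, with differences between -0.04 and 0.11.

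The genes closest in pattern to CLDN1 and CLDN16 were found by the root mean square difference of centred log2 values over the 8 arrays. For CLDN1 these were MID1 at 0.175, MUC15 at 0.189 and ATP1B1 at 0.314. MID1 read 11.85 and 11.87 at 24 h, against 4.91 and 4.95 in untreated A2780, and MUC15 read 12.18 and 12.13 at 24 h, against 4.86 and 4.85. For CLDN16 they were ISL1 at 0.114, VGLL3 at 0.154 and its neighbour P3H2 at 0.192. In all 6 the arrays labelled 24 h were the highest, which follows from choosing them by likeness to CLDN1 and CLDN16 on these arrays. Among the 6 only VGLL3 and P3H2 share the chromosome of the claudins.

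The other junction genes were set beside the claudins from lists drawn up with earlier results of these arrays known. Of 27 measured tight junction strand and plaque genes, 9 rose and 3 fell on the arrays labelled 24 h, with a median of 0.24 against 0.01 over all genes, where 14.9% of all genes rose and 15.3% fell. CXADR, the coxsackie and adenovirus receptor of the tight junction, read 10.16 and 10.19 at 24 h, against 6.57 and 6.49 in untreated A2780, and rose by 3.65 ± 0.10 (limma adjusted p = 3.36e-08). CGNL1, which encodes the plaque protein paracingulin, rose by 2.51 ± 0.09 (limma adjusted p = 2.83e-07). LSR, the angulin that marks the corners where several cells meet, rose by 2.02 ± 0.10 (limma adjusted p = 1.73e-06), and PATJ, a Crumbs complex scaffold, rose by 1.17 ± 0.09 (limma adjusted p = 1.62e-05). TJP1, which encodes the main scaffold of claudin strands, read 9.89 and 9.93 at 24 h, against 9.95 and 10.07 in untreated A2780, and missed the threshold (-0.10, limma adjusted p = 0.738). Occludin could be read only on probe sets with several gene symbols and is given no value.

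Of 16 measured adherens junction and desmosome genes, 3 rose and 2 fell at 24 h, where 14.9% of all genes rose and 15.3% fell. The list thus stood close to those shares. The desmosomal cadherins DSG2 and DSC2 rose by 2.12 ± 0.14 and 1.33 ± 0.15, with limma adjusted p of 1.01e-05 and 0.000193. CDH2, which encodes neural cadherin, read 8.86 and 8.95 at 24 h, against 10.30 and 10.33 in untreated A2780, a change of -1.41 ± 0.12 (limma adjusted p = 4.4e-05). NECTIN3 changed by -1.02 ± 0.10 (limma adjusted p = 0.000104). CDH1 read 5.42 and 5.32 at 24 h, against 5.19 and 5.46 in untreated A2780, and missed the threshold (0.05 ± 0.15, limma adjusted p = 0.866).

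Of 18 measured regulators of claudin transcription, 2 rose and 4 fell at 24 h, where 14.9% of all genes rose and 15.3% fell. SNAI2, a repressor that binds E-boxes of claudin promoters, read 5.39 and 5.83 at 24 h, against 11.62 and 11.56 in untreated A2780, and changed by -5.98 ± 0.16 (limma adjusted p = 3.36e-08). TWIST1 (-1.54 ± 0.09), TWIST2 (-0.87 ± 0.14) and ZEB1 (-0.86 ± 0.14), all linked to the mesenchymal state, were lower as well, with limma adjusted p of 5.22e-06, 0.00203 and 0.00162. The 2 that rose, chosen for naming after their values were seen, were SNAI1 (0.44, limma adjusted p = 0.0277), a repressor related to SNAI2, and GRHL1 (0.73, limma adjusted p = 0.00111), an epidermal relative of GRHL2. GRHL2, an activator of epithelial junction genes, differed by -0.08 ± 0.13 and missed the threshold (limma adjusted p = 0.732). What part SNAI2 or any other of these regulators has in the claudin values was not tested. Among 12 measured partners that bind or cleave claudins, 4 rose and none fell, where 30.1% of all genes were called in either direction. EPCAM, the partner of CLDN7, read 7.67 and 7.80 at 24 h, against 5.45 and 5.68 in untreated A2780, and rose by 2.17 ± 0.11 (limma adjusted p = 1.44e-06). The tetraspanin gene CD151 rose by 1.07 ± 0.10, the kinase gene WNK1 by 0.71 ± 0.16 and the receptor gene EPHA2 by 0.41 ± 0.09, with limma adjusted p of 6.55e-05, 0.0111 and 0.00892.

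Markers of cell identity moved with these genes on the same arrays. Of 9 fibroblast markers 8 fell at 24 h and none rose, with a median of -2.80. Over all genes 14.9% rose and 15.3% fell, the shares to set beside each marker list here. LUM changed by -5.4 ± 0.17, COL1A2 by -5.39 ± 0.11, DCN by -3.79 ± 0.09 and COL3A1 by -3.48 ± 0.11, all with limma adjusted p of 9.56e-08 or less. Of 14 epithelial and ovarian markers 2 rose and 1 fell, with a median of -0.09. They were KRT18 (2.94 ± 0.21, limma adjusted p = 1.6e-05), a keratin gene with many pseudogenes that make its reading uncertain, EPCAM, and on the lower side ESR1 (-0.49 ± 0.15, limma adjusted p = 0.0338), whose call was lost in 7 of 15 alternatives. None of 8 endothelial markers was called in the limma fit, with 1 at an unadjusted p under 0.05, and 2 of 8 leukocyte markers were, PTPRC at 0.52 ± 0.10 and CD68 at -0.60 ± 0.14 (limma adjusted p of 0.00447 and 0.01). PTPRC read 4.48 and 4.54 at 24 h, against 4.08 and 3.90 in untreated A2780, all dim readings under the lower quartile of their arrays. 

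**Figure D4:**
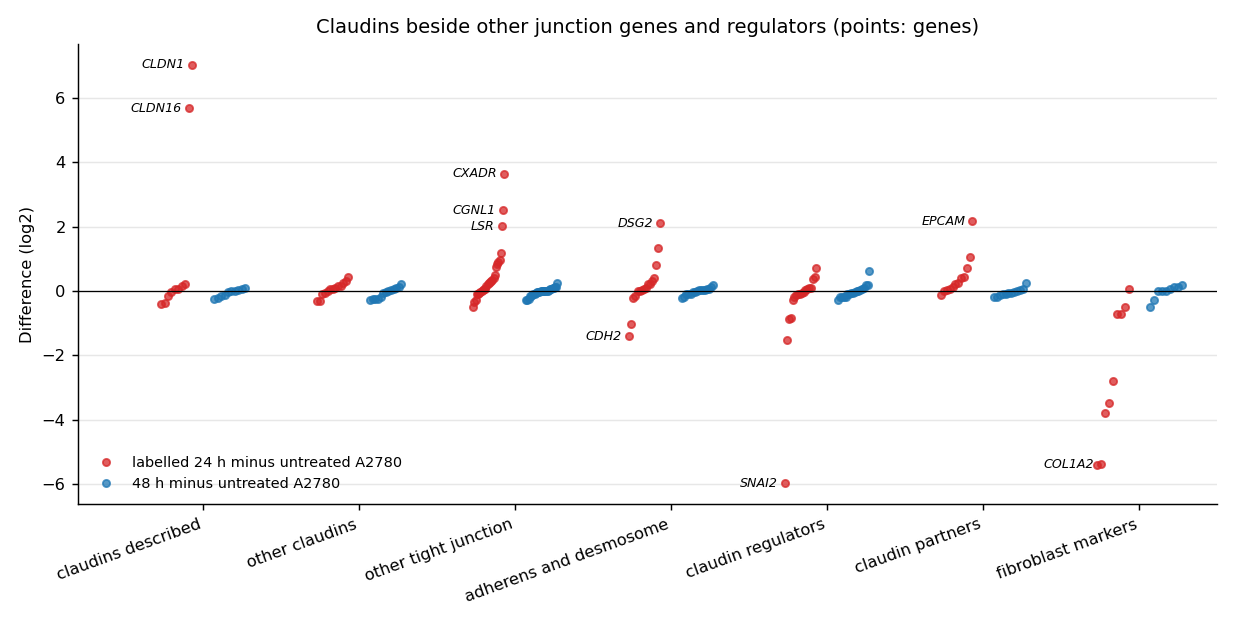
Log2 differences of single genes by list for arrays labelled 24 h and for arrays labelled 48 h, each minus untreated A2780, on 1 axis. Each point is a gene. At 24 h CLDN1 (7.04) and CLDN16 (5.69) lie above all other listed genes and SNAI2 (-5.98) below them, and at 48 h every listed gene lies between -0.49 and 0.62.

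Between the untreated subline A2780CP20 and its parent line the question is which claudins differ. CLDN12 fell and no other member passed the threshold. CLDN12 read 8.98 and 9.40 in A2780CP20, against 9.83 and 9.76 in A2780, so both subline arrays were lower and were also further apart. The difference was -0.61 ± 0.14 (95% interval -0.92 to -0.29, 1.52-fold lower, limma adjusted p = 0.0186). The call was lost without either A2780 array (adjusted p = 0.102 and 0.0849 in limma) or when only these 2 groups were fitted (0.0776), and it held without the arrays labelled 24 h (0.0333). With 1 of 10 members called, the share stood beside 18.4% of all genes.

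CLDN4 and CLDN11 were higher on both A2780CP20 arrays without passing the threshold. CLDN4 read 5.98 and 5.97 in A2780CP20, against 5.66 and 5.78 in A2780, with a difference of 0.26 ± 0.09 (limma adjusted p = 0.0846). CLDN11 read 8.47 and 8.24 in A2780CP20, against 8.07 and 8.02 in A2780, with a difference of 0.31 ± 0.12 (limma adjusted p = 0.101). CLDN15 also had no overlap, at 7.97 and 8.23 in A2780CP20, against 7.92 and 7.85 in A2780 (0.22 ± 0.11, limma adjusted p = 0.211). Together with CLDN12, 4 of 10 members had no overlap, where 55.3% of all genes had none.

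CLDN3 read 7.51 and 7.24 in A2780CP20, against 7.33 and 7.17 in A2780 (0.13 ± 0.14, limma adjusted p = 0.576). CLDN10 read 4.77 and 4.56 in A2780CP20, against 4.46 and 4.64 in A2780 (0.12 ± 0.11, limma adjusted p = 0.5). CLDN7 read 6.70 and 6.68 in A2780CP20, against 6.74 and 6.61 in A2780 (0.02 ± 0.11, limma adjusted p = 0.936). CLDN6 read 4.84 and 5.21 in A2780CP20, against 5.4 and 4.61 in A2780, and its interval of -0.60 to 0.64 leaves room for differences of either sign. For CLDN1 and CLDN16 the differences were 0.05 (95% interval -0.26 to 0.35) and 0.01, with limma adjusted p of 0.849 and 0.962. The median difference over the members was 0.08, beside 0.03 over all genes, and no member was 2-fold apart, where 0.695% of all genes were.

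Other genes of the junction changed modestly in A2780CP20. Among the other 13 claudins CLDN5 rose, at 7.39 and 7.35 in A2780CP20 against 6.98 and 7.06 in A2780 (0.35 ± 0.10, limma adjusted p = 0.038). This call was lost in 9 of 17 alternatives, among them the fits without either A2780 array, without A2780CP20 replicate 1 and without the arrays labelled 24 h, with limma adjusted p between 0.0236 and 0.165. Of 27 tight junction genes 2 rose and 2 fell, where 6.37% of all genes rose and 12% fell. LSR and the polarity kinase gene PRKCZ rose by 0.47 each (limma adjusted p = 0.0172 and 0.0119), while the polarity gene PARD6B (-0.58, limma adjusted p = 0.00817) and the junctional adhesion gene JAM3 (-0.33, limma adjusted p = 0.0345, lost in 9 of 17 alternatives) fell. Of 16 adherens junction and desmosome genes 2 rose, JUP (0.54) and NECTIN1 (0.52), and 3 fell, among them CDH2 (-0.59) and CTNNA1 (-0.50), with limma adjusted p between 0.00663 and 0.0134 for these 4.

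Over all genes 6.37% rose and 12% fell in A2780CP20, the shares to set beside each list here. Of the 12 claudin partners 3 rose in this subline and none fell. They were the tetraspanin gene CD81 (0.54, limma adjusted p = 0.0057), the claudin-phosphorylating kinase gene WNK4 (0.49, limma adjusted p = 0.0456) and EPHA2 (0.31, limma adjusted p = 0.0479). With the replicate block or with only the 2 groups compared, CD81 alone was called, and the blocked limma adjusted p was 0.0528 for WNK4 and 0.0534 for EPHA2. The calls of WNK4 and EPHA2 were lost in 12 and 10 of 17 alternatives, and that of CD81 in none. Of the 18 regulators GATA6 rose by 0.43 ± 0.12 (limma adjusted p = 0.0344, lost in 7 of 17 alternatives), whereas SNAI2 read 11.39 and 11.68 in A2780CP20, against 11.62 and 11.56 in A2780 (limma adjusted p = 0.839). TJP1, CDH1, GRHL2 and EPCAM differed by -0.02, 0.22, -0.05 and -0.27 and missed the threshold. Among the markers MSLN rose by 0.35 (limma adjusted p = 0.0472), a call lost in 11 of 17 alternatives, and of 9 fibroblast markers 4 fell, by 0.88 for FAP, 0.86 for LUM, 0.79 for DCN and 0.48 for PDGFRA, and 1 rose. Beside CLDN12, GTPBP10 read 8.11 and 8.42 in A2780CP20, against 8.63 and 8.91 in A2780, and fell by 0.51 ± 0.13 (limma adjusted p = 0.0315, lost in 8 of 17 alternatives), while CDK14 on the other side differed by -0.05. The neighbours of CLDN11 went opposite ways, SKIL by -0.70 and SLC7A14 by 0.52 (limma adjusted p = 0.0035 and 0.0162).

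The comparison of 48 h of temsirolimus with untreated A2780 used the same untreated arrays as the comparisons above, so their errors are shared. None of the 10 members passed adjusted p under 0.05 in limma, and 0 had an unadjusted p under 0.05, where 0.179% and 11.1% of all genes did. CLDN1 and CLDN16 differed by -0.13 and 0.10 on the log2 scale, with limma adjusted p of 0.781 and 0.807. CLDN15 read 7.67 and 7.65 at 48 h, against 7.92 and 7.85 in untreated A2780, the 1 member whose 48 h arrays were both lower (-0.23 ± 0.11, limma adjusted p = 0.498). CLDN11 read 8.09 on both 48 h arrays, just above 8.07 and 8.02 in untreated A2780 (0.05). These 2 of 10 members had no overlap, where 46.8% of all genes had none.

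CLDN3 read 7.22 and 6.95 at 48 h, with a difference of -0.17 from untreated A2780, and CLDN6 read 4.45 and 5.07, with a difference of -0.25. CLDN12 read 9.83 and 9.76 in untreated A2780, 9.36 and 9.46 at 24 h and 9.73 and 9.83 at 48 h. Its 48 h values overlapped the untreated ones and lay above the 24 h ones by 0.37. CLDN4 (0.00), CLDN7 (-0.04) and CLDN10 (0.08) were close to untreated A2780. The median was -0.03 over the members and over all genes, and all 10 differences lay between -0.25 and 0.10, none of them 2-fold (0.0814% of all genes).

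No gene of the junction, regulator, partner or marker lists was called at 48 h in the limma fit, as the plot of single genes by list shows. At an unadjusted p under 0.05 stood 1 of the tight junction genes, 2 regulators, 2 epithelial and 2 fibroblast markers, and 0 in each of the other lists. SNAI2 read 12.14 and 12.27 at 48 h, against 11.62 and 11.56 in untreated A2780, and did not pass (0.62 ± 0.16, limma adjusted p = 0.219). CXADR differed by -0.24 (limma adjusted p = 0.414), PRKCI by 0.26, DSP by -0.20 and NECTIN3 by 0.20. Of the other 13 claudins CLDN19 and CLDN22 had the smallest p, with differences of -0.29 and -0.25 and limma adjusted p of 0.498 and 0.522. Set against the arrays labelled 24 h, the 48 h arrays were lower for 2 of the other claudins, CLDN24 (-0.57 ± 0.13, limma adjusted p = 0.00914) and CLDN2 (-0.40 ± 0.10, limma adjusted p = 0.0169). CLDN24 read 3.75 and 3.54 at 48 h, against 4.36 and 4.06 at 24 h. These all lie under the lower quartile of their arrays, so the CLDN24 difference rests on dim readings. In the same comparison 10 of 27 tight junction genes were lower and 3 higher, where 31% of all genes were called.

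Ordered by group mean, the members showed several patterns. CLDN1, CLDN3 and CLDN7 ran from 24 h at the top through A2780CP20 and untreated A2780 to 48 h. For CLDN1 the 24 h arrays were clear of all other groups. For CLDN7 they were clear of A2780CP20, the next group, but overlapped untreated A2780. For CLDN3 they overlapped A2780CP20 and were clear of untreated A2780. CLDN16 ran 24 h, 48 h, A2780CP20 and untreated A2780, with the lower 3 groups overlapping. A2780CP20 had the highest mean for CLDN4, CLDN6, CLDN10, CLDN11 and CLDN15 and the lowest for CLDN12. It was clear of the next group only for CLDN4 and CLDN15, and overlapped it for CLDN6, CLDN10, CLDN11 and CLDN12. In CLDN15 every neighbouring pair of groups was clear of the next, in the order A2780CP20, untreated A2780, 48 h and 24 h. In CLDN12 the order was untreated A2780, 48 h, 24 h and A2780CP20, and only 48 h and 24 h were clear of each other. The 4 group means spanned 7.16 log2 units for CLDN1 and 5.69 for CLDN16, and between 0.21 for CLDN7 and 0.62 for CLDN15 among the others.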

How the data were processed

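RNA from A2780CP20, untreated A2780 and A2780 given temsirolimus for 24 h or 48 h was measured on 8 arrays. The authors deposited 1 table of log2 intensities for 33297 probe sets, with the log base read from its range (1.8 to 14.99). Per the submitters' processing notes Partek was used, in a role not stated. Background correction, normalization and probe summary were not given in the sources used here. Groups and replicate numbers came from the sample titles. Of the probe sets, 19460 had 1 gene symbol, 1754 several, and 12083 were unnamed here. For 769 genes with more than 1 probe set the one with the highest mean was kept, leaving 18417 genes, of which 18389 matched a RefSeq table of GRCh38.p14, used for gene order.

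limma 3.58.1 in R 4.3.3 was fitted to all 8 arrays (1 coefficient a group, 4 residual and 4.48 prior degrees of freedom), two-sided, with p adjusted by Benjamini-Hochberg across all 18417 genes. Genes with adjusted p under 0.05 were called, and ± marks the standard error. The fit was tested on simulated data. The number of arrays limits the precision. The claudins and all gene lists were chosen with earlier results of these data known.

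All 10 claudins are named. From each other list up to 4 called genes without overlap were named per comparison, by size of difference, or up to 2 with the smallest p. SNAI2, GRHL2, EPCAM, TJP1, CDH1 and CDH2 were always named, as were the nearest measured neighbours and, for CLDN1 and CLDN16, 5 on each side and 3 genes of like pattern. Replicate numbers paired the arrays weakly at most by their residuals and were left out of the fit. Alternatives were quantile normalization, median centring, dropping the dimmest 25% of genes, averaging probe sets, leaving out arrays, a replicate block, only the groups compared, and a trended or robust prior.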

Additional observations from a re-analysis of the deposited data

Results flagged for a closer look

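The 48 h and 24 h arrays differed by -7.16 on the log2 scale for CLDN1 and by -5.59 for CLDN16, so the arrays labelled with the later and the earlier time of the same drug differed from untreated A2780 by unlike amounts. For CLDN3 both 48 h arrays lay below the untreated mean and both 24 h arrays above it, with a difference of -0.38 for 48 h minus 24 h. CLDN10 had both 48 h arrays on the higher side of the untreated mean and both 24 h arrays on the lower side, with a difference of 0.22. Neither CLDN3 nor CLDN10 was called for 48 h over 24 h, and both differences are given as descriptions with no p. Groups of 2 arrays are too small to look for single outlying arrays.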

How the results depend on the processing

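For A2780CP20 against A2780, 1 claudin was called. Leaving out 1 array gave 0 to 2 claudins, with 0 without either A2780 array (CLDN12 adjusted p = 0.102 and 0.0849 in limma) and 2 without A2780CP20 replicate 2, where CLDN11 (0.43, limma adjusted p = 0.0341) joined CLDN12 (-0.82, limma adjusted p = 0.00283). The count was 0 with only the 2 groups compared (CLDN12 limma adjusted p = 0.0776), and CLDN12 kept its direction in every alternative, between -0.82 and -0.40. At 48 h 0 claudins were called in all alternatives, and 2 claudins were past 2-fold in all alternatives for 24 h over untreated A2780 and for 48 h over 24 h. Small differences changed sign. Quantile normalization turned A2780CP20 minus A2780 to -0.016 for CLDN6 and -0.026 for CLDN16, and median centring turned 48 h minus untreated to 0.025 for CLDN12. Leaving out 1 array, A2780CP20 minus A2780 ranged over -0.38 to 0.42 for CLDN6, -0.14 to 0.16 for CLDN16, -0.05 to 0.08 for CLDN7, -0.035 to 0.125 for CLDN1 and -0.01 to 0.26 for CLDN3. The same ranges for 48 h minus untreated were -0.325 to 0.075 for CLDN1, -0.64 to 0.15 for CLDN6, -0.105 to 0.025 for CLDN7, -0.015 to 0.165 for CLDN10 and -0.065 to 0.035 for CLDN12. Of 652 recomputed differences of the members, 627 kept direction and side of the threshold or moved by less than 1 SD, 18 changed sign, 3 moved further, 1 passed the threshold and 3 lost it.

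The numbers of the replicates paired the arrays weakly at most, since residual correlations of arrays with the same number were all positive but low, from 0.002 to 0.181. With the replicate block 1 claudin was called for A2780CP20 (CLDN12 limma adjusted p = 0.0159) and 0 at 48 h, while in A2780CP20 the called partners came to 1 in place of 3, the regulators to 2 and the other claudins to 3 in place of 1 each, and at 24 h the other claudins to 2 in place of 1, and 2 members were past 2-fold at 24 h and for 48 h over 24 h. Over all genes the calls ranged over alternatives from 974 to 5543 for A2780CP20 (3388 in the fit reported), from 3621 to 6895 for 24 h (5551), from 4 to 68 for 48 h (33) and from 3715 to 7154 for 48 h over 24 h (5702). In A2780CP20 the called tight junction genes ranged from 1 to 11 (4), adherens and desmosome genes from 0 to 9 (5), partners from 1 to 4 (3), fibroblast markers from 2 to 5 (5), and regulators and other claudins from 0 to 3 each (1 each). At 24 h the called tight junction genes ranged from 9 to 16 (12), adherens and desmosome genes from 5 to 8 (5), partners from 2 to 6 (4), fibroblast markers from 7 to 8 (8), regulators from 4 to 7 (6) and other claudins from 0 to 3 (1). CLDN6 and CLDN10 gave no value once the dimmest 25% of genes were dropped, and fits without the arrays labelled 24 h gave none for comparisons that use those arrays. CLDN10 lay below the lower quartile of its array on all 8 arrays, so its differences rest on dim readings.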
